A study of Mus musculus with 6 samples.

Results

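Malat1, Neat1, Miat, Tug1, Rmst and Gas5 are long noncoding RNAs (lncRNAs), transcripts that are made like messenger RNAs but act mainly as RNA rather than as templates for protein. These 6 genes were chosen by name, and each was found in 1 of the 41945 rows of the gene-level table, so all 6 members are accounted for. They were read in motor neurons (MNs) differentiated from mouse embryonic stem cells (mESCs) of 2 genotypes on the FVB/N background. The control line Hb9 is labelled wildtype and, by the study's description of the line, also carries the human SMN2 transgene on both alleles. The spinal muscular atrophy (SMA) line A2 has the genotype SMN2+/+;mSmn-/-, which lacks functional mouse Smn1, so the SMN2 transgene is shared by both lines. Both lines express eGFP from an HB9 promoter, and embryoid bodies were exposed for 5 days to 1 µM retinoic acid and 1 µM Smoothened agonist before living eGFP-positive cells were sorted. RNA of 3 samples per genotype was sequenced. The table holds 1 pooled value per genotype in FPKM, a level scaled to transcript length and to sequencing depth, with no value per sample. The differences given here therefore have no replicate check and no test, and the test results that the table itself lists were not used. Each genotype is 1 mESC line, so an effect of SMN and other differences between the lines cannot be told apart.

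Long noncoding RNAs of this kind work mostly in the nucleus. Malat1 is an abundant RNA of nuclear speckles, bodies rich in splicing factors, and Neat1 is the scaffold on which paraspeckles are built. Miat, also called Gomafu, is a nuclear RNA of neurons and retina that binds the splicing regulators SF1 and QKI. Tug1 is a broadly expressed RNA that was first studied in the developing retina. Rmst is a transcript of the neural tube that binds SOX2, and Gas5 is a spliced RNA whose introns hold box C/D small nucleolar RNAs (snoRNAs), which guide the methylation of ribosomal RNA.

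Neat1 was the only member more than 2-fold higher in A2 SMA MNs, and Miat and Rmst were the members more than 2-fold lower. The deleted gene was read first as a check of the labels: Smn1 had 137 FPKM in Hb9 control MNs against 5.26 FPKM in A2 SMA MNs. The reporter is driven by the promoter of Mnx1, and Mnx1 itself had 41.2 and 44.2 FPKM, which is a log2 ratio of 0.10. A log2 ratio here is the FPKM value in A2 SMA MNs over that in Hb9 control MNs, with no pseudocount.

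Sequence elements for which Malat1, Neat1 and Miat are known are shown first. Malat1 and Neat1 are single-exon transcripts of 6983 and 20771 bases in GENCODE release M21 (build GRCm38), and both lie on the minus strand of chromosome 19. The 3' ends of Malat1 and of the long Neat1 isoform are known to be cut by RNase P rather than polyadenylated, and are guarded by a triple helix in which an A-rich tract pairs with U-rich elements. The stretches that end with this tract are given 5' to 3', at chr19:5795982-5796081 for Malat1 and chr19:5824708-5824807 for Neat1, with the U-rich elements TTTCTTTT and TTTGCTTTT and the A-rich element AGCAAAA in capitals.
Malat1: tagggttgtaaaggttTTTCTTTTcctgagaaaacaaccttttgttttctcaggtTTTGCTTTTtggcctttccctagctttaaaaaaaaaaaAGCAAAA
Neat1: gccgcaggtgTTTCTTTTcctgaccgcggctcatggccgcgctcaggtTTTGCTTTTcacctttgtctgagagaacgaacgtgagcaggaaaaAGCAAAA
The U-rich elements began 84 and 45 bases before the end of the tract in Malat1 and 90 and 52 bases before it in Neat1. Searched on the transcribed strand, in this order and within 120 bases, the 3 elements were found in 2 of 7040 GENCODE transcripts of 5000 bases or longer (0.0284%), which were these 2. The letters were chosen after both sequences had been read, so this count describes what they share and is not a search made blind. The annotated Neat1 transcript stops at the tract, whereas that of Malat1 runs on for 292 bases and holds AATAAA, the signal for polyadenylation, 22 bases before its end. The library kit selects polyadenylated RNA, and how such ends bear on the captured levels was not tested.

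Miat is shown for the repeated element TACTAAC, which matches the branch point sequence that SF1 recognizes and holds the core that QKI binds. The longest Miat transcript has 9163 bases in 7 exons and lies on the minus strand of chromosome 5. The 150 bases with the most copies, at chr5:112216717-112216866 of GRCm38, hold 3 of them, in capitals.
Miat: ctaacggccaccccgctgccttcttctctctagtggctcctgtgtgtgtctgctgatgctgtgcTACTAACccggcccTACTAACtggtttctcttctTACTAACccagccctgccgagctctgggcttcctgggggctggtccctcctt
The whole transcript held 6 copies, searched on the transcribed strand. Among the 7040 transcripts of 5000 bases or longer 15.7% held at least 1 copy, and 3 transcripts, all of Miat or Slc8a1, held 6 or more. The longest transcript of Neat1 held 1 copy, and those of Malat1, Tug1, Rmst and Gas5 held none.

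Miat had 118 FPKM in Hb9 control MNs against 2.03 FPKM in A2 SMA MNs. It was 58.1-fold lower in A2 SMA MNs (log2 ratio -5.86), the widest difference of the 6. Only 0.147% of the 14926 named genes that reached 1 FPKM had a lower ratio. Its level stood at or above that of 93.0% of these genes in Hb9 control MNs and of 17.7% in A2 SMA MNs. The gene spans 112642248 to 112657989 on chromosome 5 of NCBI m37, the build of the table. Its row carries the status FAIL, which Cuffdiff sets where a numerical exception stops its own comparison at a locus, although the FPKM values are listed.

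Rmst spans 91537962 to 91627931 on chromosome 10 of NCBI m37. It was the lowest member in both genotypes, at 3.13 FPKM in Hb9 control MNs against 0.499 FPKM in A2 SMA MNs. The difference was 6.27-fold (log2 ratio -2.65), and 5.38% of genes had a lower ratio. The log2 ratio was -1.46 with a pseudocount of 1 FPKM, which exceeds its level in A2 SMA MNs. Rmst reached 1 FPKM only in Hb9 control MNs.

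Of the other entries within 200 kb of Rmst, 1 reached 1 FPKM. Gm17341, which shares the locus, was below that minimum in both genotypes, at 0.318 and 0.0181 FPKM in Hb9 control and A2 SMA MNs (status NOTEST). The entry that reached it, named Mir135a-2, lies 3032 bp from the Rmst locus and had 5.89 FPKM in Hb9 control MNs against 0.492 FPKM in A2 SMA MNs (log2 ratio -3.58). That entry spans 1147 bp while the RefSeq hairpin has 100 bases, so its value is that of a longer RNA and not of the mature miRNA. In GENCODE release M21 the Rmst gene reaches from 92071037 to 92165170 on chromosome 10 of GRCm38 and encloses the hairpin at 92072086 to 92072185. The second miRNA gene inside Rmst, Mir1251, is listed at 0 FPKM in both genotypes. The mature 5p products that these hairpins can give are shown to identify the genes, with the seed (bases 2 to 8) in capitals.
mmu-miR-135a-5p: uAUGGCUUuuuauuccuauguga
mmu-miR-1251-5p: aCUCUAGCugccaaaggcgcu
The seeds differ, and the mature miRNAs were not measured by these libraries.

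Neat1 had 14.3 FPKM in Hb9 control MNs against 63.8 FPKM in A2 SMA MNs. It was 4.47-fold higher in A2 SMA MNs (log2 ratio 2.16), and 98.6% of genes had a lower ratio. Among 504 rows of lncRNA genes with at least 1 FPKM it stood 60th by level in Hb9 control MNs and 13th in A2 SMA MNs. The locus covers 5824708 to 5845478 on chromosome 19 of NCBI m37. The short Neat1 isoform is polyadenylated and the long one, which paraspeckles need, is not; the table gives 1 value for the gene, so the isoforms cannot be told apart.

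Malat1 lies 22037 bp from Neat1, from 5795653 to 5802671, and was listed at 147 FPKM in Hb9 control MNs against 95.7 FPKM in A2 SMA MNs. The difference was 1.53-fold in the opposite direction to that of Neat1 (log2 ratio -0.62), and 34.1% of genes had a lower ratio. The quotient of Neat1 over Malat1 does not depend on how the libraries were scaled. It was 0.0972 in Hb9 control MNs and 0.666 in A2 SMA MNs, a 6.86-fold shift. Gm20417, which is listed at the same locus as Malat1, had 19.5 and 10.6 FPKM. Both rows have the status FAIL. The kit named in the labels does not mark strand, so reads of overlapping genes on opposite strands cannot be told apart.

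Tug1 had 45.0 FPKM in Hb9 control MNs against 26.6 FPKM in A2 SMA MNs, a 1.69-fold difference (log2 ratio -0.76) with the status FAIL. It extends from 3539797 to 3548815 on chromosome 11 of NCBI m37. The Malat1 to Tug1 quotient was 3.26 in Hb9 control MNs and 3.604 in A2 SMA MNs. These members therefore kept nearly the same proportion to each other. Both log2 ratios lay between the quartiles over all genes, -0.89 and 0.19, and 28.9% of genes had a lower ratio than Tug1. Both members were lower in A2 SMA MNs by less than 2-fold. The table gives no spread against which such a difference could be read.

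Gas5 was the most abundant member in both genotypes. Its row had 309.9 FPKM in Hb9 control MNs against 447 FPKM in A2 SMA MNs, a 1.44-fold difference (log2 ratio 0.53), and 86.0% of genes had a lower ratio. The row covers 162937902 to 162968670 on chromosome 1 of NCBI m37 and names 9 snoRNA genes besides Gas5 (among them SNORD44, SNORD78 and Snord47), so the value belongs to the host and its snoRNA genes together. Zbtb37 is listed at the same locus and was lower in A2 SMA MNs, at 7.56 and 4.70 FPKM. Transcripts of Gas5 begin with a pyrimidine tract that ties their translation and decay to growth signals. For Gas5, the member with the highest level, the RefSeq promoter of the downstream start is shown on the plus strand at chr1:161034916-161035215 of GRCm38.p6, with GC boxes (GGGCGG, either strand) and a cyclic AMP response element (TGACGTCA) in capitals.
Gas5: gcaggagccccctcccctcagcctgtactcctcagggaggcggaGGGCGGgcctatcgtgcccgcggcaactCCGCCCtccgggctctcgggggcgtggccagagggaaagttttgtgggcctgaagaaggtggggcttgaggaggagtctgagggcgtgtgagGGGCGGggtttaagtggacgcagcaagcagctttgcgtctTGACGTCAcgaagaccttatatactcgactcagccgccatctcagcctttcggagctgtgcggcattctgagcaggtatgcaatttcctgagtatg
The window reaches from 250 bases before the start to 50 after it. It held 3 GC boxes and 1 cyclic AMP response element, and of 32851 RefSeq promoter windows of the same length 9.85% held 3 or more GC boxes, 35.7% at least 1, and 1.79% the response element. Promoter windows were found for 4 of the 6 members. The cyclic AMP response element was absent from those of Malat1, Miat and Tug1 and from the upstream start of Gas5, which held 5 GC boxes. CCAAT boxes (CCAAT), TATA boxes (TATAAA) and E-boxes (CACGTG), searched on both strands, were in none of these 5 windows. The GC content was 47.0% for Malat1, 64.3% for Miat, 71.3% for Tug1 and 73.7% and 62.0% for the upstream and downstream starts of Gas5, beside a median of 52.7% over all windows.

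**Figure D1:**
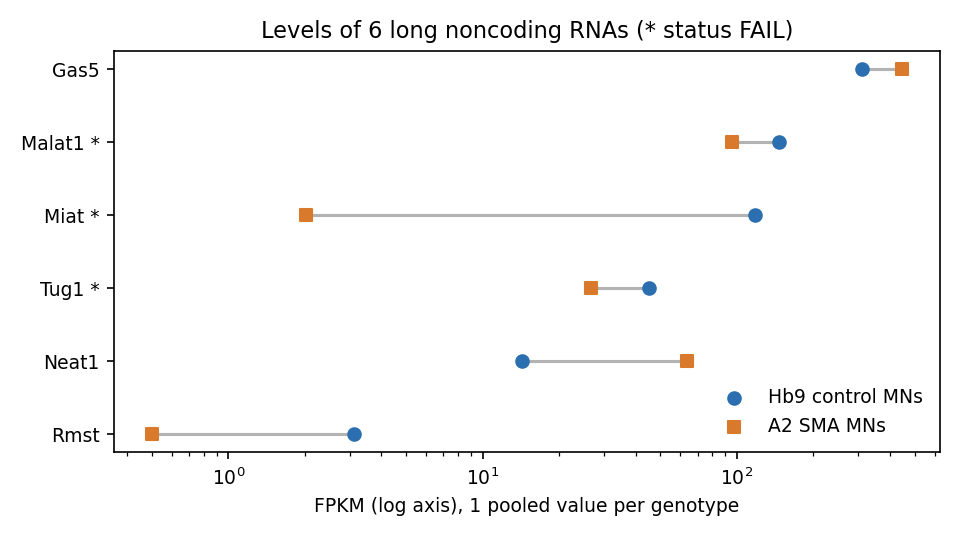
FPKM (log axis) of the 6 lncRNAs in Hb9 control MNs (blue circles) and A2 SMA MNs (orange squares), 1 pooled value per genotype, with asterisks at rows of the status FAIL. Miat lies at 118 and 2.03 FPKM and has the longest connecting line, and Neat1 and Gas5 are the members whose square lies to the right.

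Read in order of level, the members stood as Gas5, Malat1, Miat, Tug1, Neat1 and Rmst in Hb9 control MNs. In A2 SMA MNs the order was Gas5, Malat1, Neat1, Tug1, Miat and Rmst, so that Neat1 and Miat exchanged places while the others kept theirs. Miat was 8.27-fold above Neat1 in Hb9 control MNs, and Neat1 was 31.4-fold above Miat in A2 SMA MNs. The levels are per length, and whether neighbours in either order differ beyond their spread is unknown.

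The members were then read against all genes. Of the 14926 genes, 6.83% were past 2-fold higher in A2 SMA MNs and 22.4% past 2-fold lower, beside 1 and 2 of the 6 members, counts too small to set the members apart from that background. The median log2 ratio over all genes was -0.29, and over the members it was -0.69. Relative to the median gene the log2 ratios of the members were -5.57 for Miat, -2.36 for Rmst, -0.47 for Tug1, -0.33 for Malat1, 0.82 for Gas5 and 2.45 for Neat1. Every member kept its direction and its side of 2-fold. Centring on the median gene brought the genes past 2-fold to 10.4% higher and 16.5% lower. The rows of Malat1, Miat and Tug1 have the status FAIL, as had 13.98% of all genes and 20.6% of those reaching 20 FPKM. Without such rows the median over the 3 members left was 0.53.

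Genes that GENCODE release M21 classes as lncRNAs, a class joined by symbol and chosen after values of the members were seen, gave a second background. Of these 504 rows, 9.72% were past 2-fold higher in A2 SMA MNs and 42.3% past 2-fold lower. Their median log2 ratio was -0.74, and their median levels were 2.47 FPKM in Hb9 control MNs against 1.55 FPKM in A2 SMA MNs. The join leaves out some lncRNAs, such as 2610017I09Rik, whose log2 ratio of -6.72 is below that of Miat. Within the joined rows Miat stood 5th from the lowest by ratio and Rmst 57th, and Neat1 stood 17th from the highest. By level in Hb9 control MNs Gas5 was 3rd, Malat1 8th and Miat 10th. Miat was 202nd in A2 SMA MNs.

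**Figure D2:**
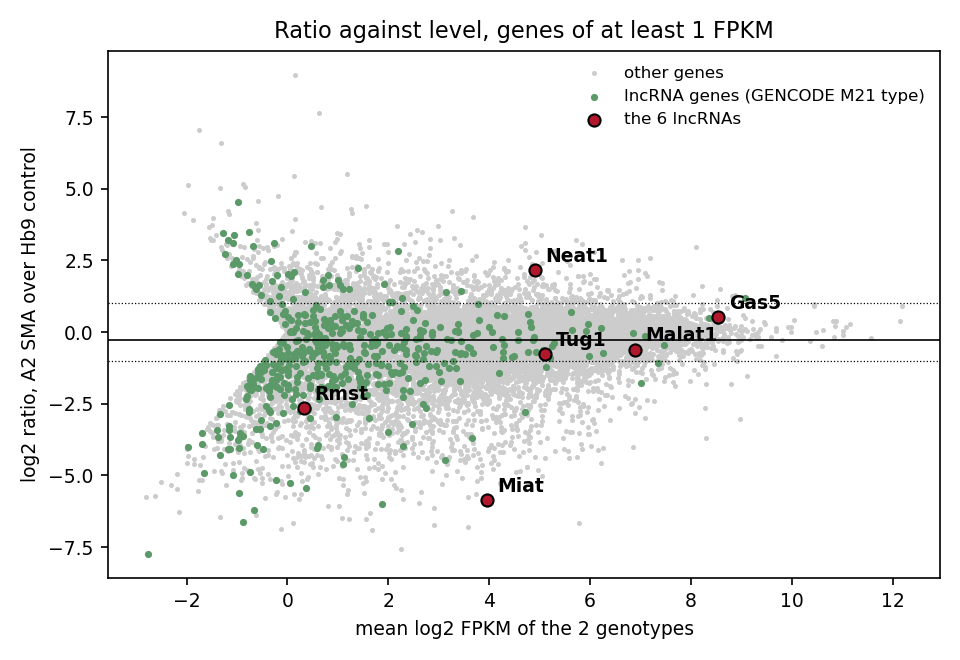
Log2 ratio (A2 SMA over Hb9 control) against the mean log2 FPKM of the 2 genotypes for 14926 genes of at least 1 FPKM, with lncRNA genes in green and the 6 lncRNAs in red. Dotted lines mark 2-fold and the solid line marks the median gene at -0.29; Miat lies at -5.86, below all but 0.147% of genes, and Neat1 at 2.16, above 98.6% of them.

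Neighbouring genes were read to see whether each member's difference extended along its chromosome. Within 200 kb of Neat1, 19 entries reached 1 FPKM, and their log2 ratios ran from -2.03 to 0.87 with a median of -0.54, so none was as high as Neat1. Its nearest neighbour on the right, Frmd8, had 27.1 FPKM in Hb9 control MNs against 31.3 FPKM in A2 SMA MNs (log2 ratio 0.21), and on the left lay Malat1. For Miat the 8 entries, all on its right, ran from -1.61 to 0.02 with a median of -0.56, none of them near -5.86. Some genes gave more than 1 of these entries, and none on the left of Miat reached 1 FPKM. The nearest, Tpst2, which encodes a tyrosylprotein sulfotransferase, had 33.1 and 33.6 FPKM in its most abundant row. In another row it had 2.91 and 1.94 FPKM (log2 ratio -0.58).

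Around Malat1 the median of 21 entries was -0.54, beside -0.62 for Malat1 itself. To its left the nearest genes share 1 locus, 24252 bp away, of which the entry of Fam89b and Sssca1 was the most abundant, at 86.0 FPKM in Hb9 control MNs against 59.2 FPKM in A2 SMA MNs. Tug1 begins 682 bp from Morc2a, an ATPase gene of chromatin silencing, which had 44.6 and 38.9 FPKM (log2 ratio -0.20, status FAIL). The nearest gene on the other side of Tug1, Smtn, had a log2 ratio of -0.28. All 7 entries around Tug1 were lower in A2 SMA MNs, as were 65.9% of all genes, and 5 of the 7 lay below the median gene. Beside Gas5, Rc3h1 had a log2 ratio of -0.37 (status FAIL). The 6 entries around Gas5 ran from -0.69 to 1.42 with a median of -0.07, 3 of them higher and 3 lower in A2 SMA MNs. No locus without a gene symbol was listed within 50 kb of any member.

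**Figure D3:**
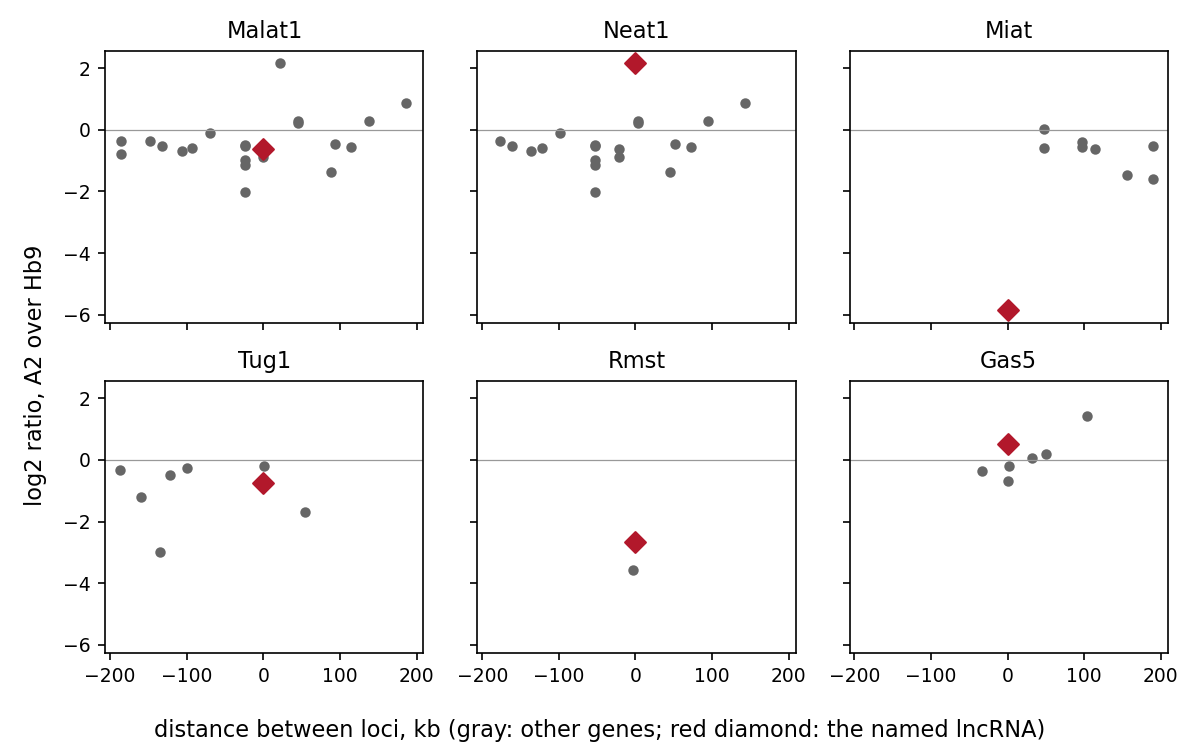
Log2 ratio (A2 SMA over Hb9 control) of each lncRNA (red diamond) and of the entries of at least 1 FPKM within 200 kb (gray points), against the distance between loci in kb. Miat at -5.86 and Neat1 at 2.16 lie apart from their neighbours, whereas Malat1 and Tug1 lie among theirs.

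The mRNAs for proteins of paraspeckles and nuclear speckles that reached 1 FPKM were within 2-fold between the genotypes. Of 16 paraspeckle genes, 15 reached 1 FPKM and all 15 were within 2-fold, with the lowest log2 ratio at -0.62 for Hnrnph3 and a median of -0.16. The 16th, Nudt21, was below the minimum at 0.229 and 0.0984 FPKM (log2 ratio -1.22). Sfpq, a core paraspeckle protein, had 369.6 FPKM in Hb9 control MNs against 352 FPKM in A2 SMA MNs, and the values were 227 and 216 for Taf15 and 188 and 190 for Dazap1, all in FPKM. The status was FAIL for 5 of the 15, Sfpq, Dazap1 and Hnrnph3 among them. Neat1 was thus 4.47-fold higher beside mRNAs for its partner proteins that stayed within 2-fold, as did most genes of such levels. Of the 7361 genes reaching 20 FPKM, 292 were past 2-fold higher and 1231 past 2-fold lower in A2 SMA MNs.

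All 16 nuclear speckle genes were likewise within 2-fold, as were most genes reaching 20 FPKM. The log2 ratios of the 16 ran from -0.69 for U2af1 to 0.30 for Srsf7, with a median of -0.24. The splicing factor genes Srsf1 and Srsf2 had 553 and 519 FPKM in Hb9 control MNs and 446 and 554 FPKM in A2 SMA MNs. Ddx39b, an RNA helicase of splicing and export, had 359 and 334 FPKM. Srsf2 and 2 more of the 16 had the status FAIL. Relative to the median gene both medians turn to just above 0, at 0.13 for the paraspeckle and 0.05 for the nuclear speckle genes, so no direction is given for either list.

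Other hosts of snoRNAs were compared with Gas5. Of 16 listed, 8 were found in the table by symbol and 7 reached 1 FPKM, of which 3 were higher and 4 lower in A2 SMA MNs, with a median log2 ratio of -0.13 (0.16 relative to the median gene). Snhg1 had 143 FPKM in Hb9 control MNs against 130 FPKM in A2 SMA MNs. Snhg3, whose row also names Rcc1, had the highest ratio, at 0.41, and Snhg4 shares its row with Matr3 and Paip2 and had 379 and 318 FPKM, both rows with the status FAIL. Snhg11, a host expressed in neurons, was the only one past 2-fold, with 80.0 FPKM in Hb9 control MNs against 24.1 FPKM in A2 SMA MNs (log2 ratio -1.73).

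Among genes reported to bind or regulate the members, all 16 were listed, with a median log2 ratio of 0.11 (0.40 relative to the median gene). Of these, 2 were past 2-fold higher and 1 was past 2-fold lower, beside 6.83% and 22.4% of all genes. The counts are too small to set the list apart from that background. Celf3, which encodes a neuronal splicing regulator whose protein binds Miat, had 72.0 FPKM in Hb9 control MNs against 2.90 FPKM in A2 SMA MNs (log2 ratio -4.63, status FAIL). Sf1, the branch point binding protein, had 423 and 447 FPKM, and Qk, the QKI gene, had 139.8 and 70.0 FPKM in its most abundant row. Miat and Celf3 were therefore both low in A2 SMA MNs, Qk was lower by just under 2-fold (log2 ratio -0.998), and Sf1 was not lower. Pou5f1, a pluripotency factor reported to bind at Miat in mESCs, had 98.3 and 775 FPKM.

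For Rmst, Sox2 had 179 FPKM in Hb9 control MNs against 197 FPKM in A2 SMA MNs (log2 ratio 0.14). Rest, a repressor of neuronal genes that is reported to restrain Rmst, had 16.1 and 41.4 FPKM (log2 ratio 1.37, status FAIL). Sox2, Rest and Qk were named after their values were seen. The RNA-binding proteins Hnrnpa2b1 and Ptbp1 had log2 ratios of -0.03 (status FAIL) and 0.46.

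Other lncRNAs of development showed the widest range. Of 32 listed, 12 were found by symbol and 8 reached 1 FPKM, of which 2 were past 2-fold higher and 4 past 2-fold lower, beside 9.72% and 42.3% of all lncRNA rows, with a median log2 ratio of -1.34. That median depends on which rows are kept and ran from -2.52 with a minimum of 5 FPKM to -0.20 over rows of 1 symbol. The row of 2610017I09Rik, a neural lncRNA beside Pou3f3, had 77.1 FPKM in Hb9 control MNs against 0.734 FPKM in A2 SMA MNs (log2 ratio -6.72). C130071C03Rik, the host of Mir9-2, had 29.4 and 0.462 FPKM. Gm15055 was in the opposite direction, with 17.1 and 63.3 FPKM (log2 ratio 1.89, status FAIL), and Kis2 had a log2 ratio of 3.39 at 0.147 and 1.55 FPKM. Sox2ot, which encloses Sox2 and was named after its values were seen, had 15.4 and 2.70 FPKM.

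Imprinted and X-linked lncRNAs were fewer. Of 13 listed, 8 were in the table and 6 reached 1 FPKM, with a median log2 ratio of -0.72. The X-linked genes in the table, Xist and Tsix, were below 1 FPKM, so this median covers imprinted genes alone. With no minimum, which brings in Xist and Tsix at log2 ratios of 1.02 and 1.12, the median of the list was 0.10. H19 had 352 FPKM in Hb9 control MNs against 813 FPKM in A2 SMA MNs (log2 ratio 1.21, status FAIL), and Meg3 had 237 and 113 FPKM (log2 ratio -1.07). Rian and Mirg, which lie in the same imprinted domain as Meg3, had log2 ratios of -0.92 and -0.56. H19 was past 2-fold higher and Meg3 past 2-fold lower. Relative to the median gene Meg3 was within 2-fold, at -0.78, and Nespas (status FAIL) was past it, at 1.05. Nudt21, Xist, Tsix and Nespas were named after their values were seen.

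The makeup of the sorted cells was read from marker genes beside these values. Of all 14926 genes, 6.83% were past 2-fold higher in A2 SMA MNs and 22.4% past 2-fold lower (10.4% and 16.5% relative to the median gene). Of 8 pluripotency markers, 8 were past 2-fold higher in A2 SMA MNs, and their levels summed to 223 FPKM in Hb9 control MNs against 1488 FPKM in A2 SMA MNs. Of 8 pan-neuronal markers in the table, 8 were past 2-fold lower, with sums of 1252 and 133 FPKM. Motor neuron markers past 2-fold lower were 5 of the 6 that reached 1 FPKM, with sums of 216 and 52.5 FPKM over the 7 in the table. Mnx1 made up most of the sum in A2 SMA MNs, and without it the sums were 175 and 8.39 FPKM. Of the neural progenitor markers, 6 of 7 were past 2-fold lower, with sums of 2333 and 220.1 FPKM. Vim made up most of both sums, at 1436 and 178 FPKM, and Pax6 was within 2-fold, at 22.4 and 21.4 FPKM. Vim and Pax6 were named after their values were seen. Fibroblast markers summed to 69.6 and 36.6 FPKM (5 of 8 past 2-fold lower, 2 of 8 relative to the median gene, and 1 higher) and glial markers to 53.5 and 20.1 FPKM (3 of 5 past 2-fold lower). No marker in the table was at 0 FPKM in either genotype. In such pooled cells, fewer cells of a type and less RNA per cell cannot be told apart, and the part of cell makeup in the differences of Miat, Rmst and Neat1 was not tested.

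**Figure D4:**
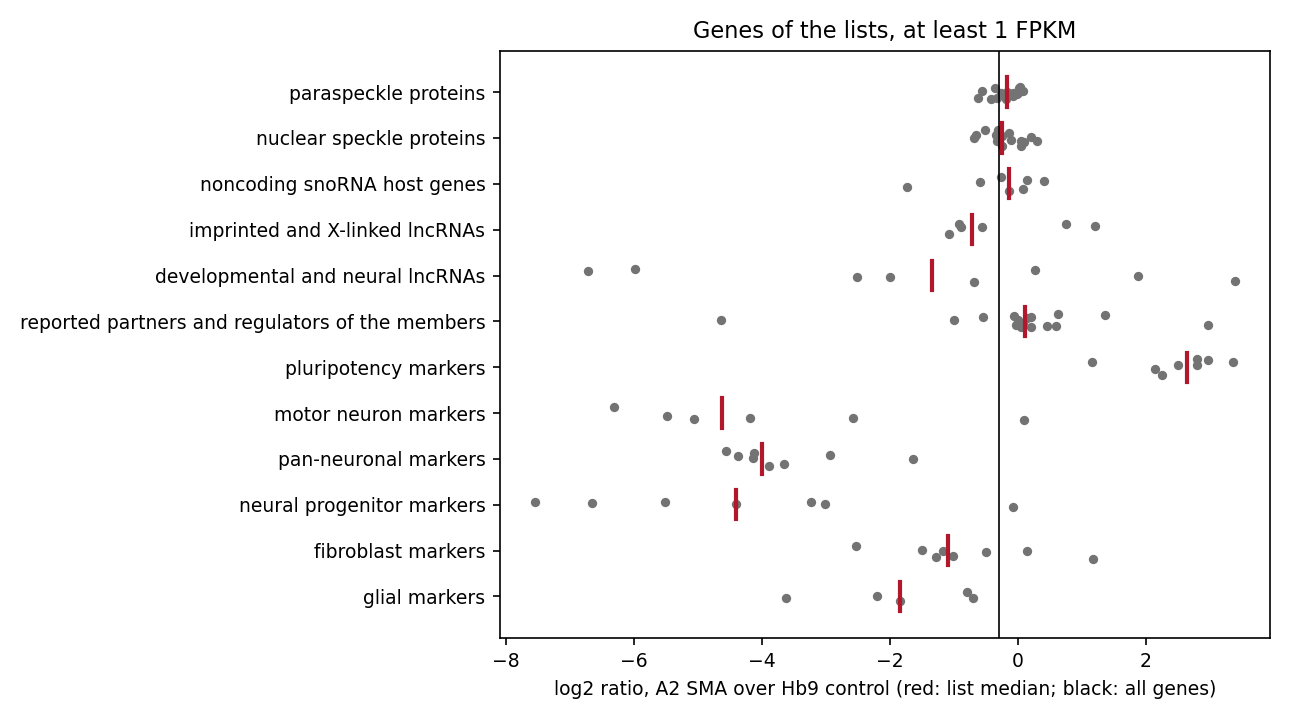
Log2 ratio (A2 SMA over Hb9 control) of each gene of at least 1 FPKM in either genotype (gray points), by list, with the median of each list (red bar) and of all genes (black line, -0.29). The paraspeckle and nuclear speckle genes lie close to the line, the pluripotency markers to its right with a median of 2.65 and the pan-neuronal markers to its left with a median of -4.00.

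For each member the gene nearest to it in log2 FPKM over the 2 genotypes was named, with the Euclidean distance as the measure. These were Anapc1 for Malat1 (distance 0.042), Gpa33 for Neat1 (0.082), Adcyap1r1 for Miat (0.33), Rnf11 for Tug1 (0.016), Crhbp for Rmst (0.034) and Vars for Gas5 (0.064). Miat had the most distant nearest gene, Adcyap1r1, at 94.6 FPKM in Hb9 control MNs against 1.89 FPKM in A2 SMA MNs. The rows of Gpa33 and Vars have the status FAIL.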

How the data were processed

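RNA-Seq of sorted MNs of 6 samples was processed by the authors with FastQC 0.10.1, CutAdapt (adapters and poly-A tails), TopHat 2.04 (NCBI m37, Ensembl annotation), Cufflinks and Cuffdiff. The deposited FPKM values are 1 pooled value per genotype, so depth per sample and the reads behind a value are unknown and neither error nor interval is given. The table's own fold changes, test statistics, p-values and q-values were not used; the status was read only as a flag. Per symbol the row with the highest FPKM was taken, each row counted once. Neighbours were the exception: each row that reached 1 FPKM was an entry, so a gene can be counted more than once there. Backgrounds were named rows above 0 FPKM in both genotypes whose higher value reached 1 FPKM, and a call was a 2-fold difference. Python 3.11.15, numpy 2.4.6, pandas 2.3.3 and matplotlib 3.10.9 were used, and ratios and calls were tested on simulated data. Starts are counted from 1. Sequences came from RefSeq (GRCm38.p6) and GENCODE M21.

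Members and lists were chosen with earlier results of these data known. Named genes were the members, the 4 most abundant and the extreme genes of each list other than the markers, the nearest neighbours on each side, the nearest gene in level, Smn1 and Mnx1, with exceptions stated; some genes that this rule names are not reported here. Alternatives were other pseudocounts, scalings, filters, fold limits, summed rows, rows of 1 symbol, and rows without FAIL.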

Additional observations from a re-analysis of the deposited data

How the results depend on the processing

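Each member's log2 ratio kept its direction and its side of 2-fold under the alternatives run for it. These were pseudocounts of 0.1 and 1 FPKM, 3 scalings, summed rows and, for the members they left, rows of 1 symbol and no FAIL rows. Rows of 1 symbol leave out Gas5, whose only row also names snoRNA genes. The ranges were -5.86 to -5.29 for Miat, -2.65 to -1.46 for Rmst, -0.76 to -0.47 for Tug1, -0.62 to -0.33 for Malat1, 0.53 to 0.82 for Gas5 and 2.09 to 2.45 for Neat1. Leaving out FAIL rows, which takes away Malat1, Miat and Tug1, or requiring 5 FPKM, which takes away Rmst, left 1 member past 2-fold lower, and a limit of 1.5-fold gave 4. The median over the members was 0.53 without FAIL rows. The genes past the limit and higher in A2 SMA MNs were 4.28% with a pseudocount of 1 FPKM, 10.4% with either centring on the median gene or upper quartile scaling, and 12.7% at 1.5-fold, where 35.4% were lower. The median of the developmental lncRNAs was -0.20 over rows of 1 symbol, -1.996 without FAIL rows, -2.52 at 5 FPKM and -0.45 with no minimum. That of the imprinted and X-linked lncRNAs was 0.10 with no minimum, and that of the motor neuron markers -3.59 with a pseudocount of 1 FPKM. A list's median was taken as moved when it shifted by more than 1.5-fold. No paired analysis was possible because the table holds 1 pooled value per genotype, and for the same reason no replicate could be left out.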
